A study of Mus musculus with 15 samples.

Results

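Transcripts of 9 Toll-like receptor (TLR) genes and of Cd14 were followed across mouse visceral adipose tissue macrophages and cells labelled as blood monocytes. The 10 genes were taken by symbol (Tlr1, Tlr2, Tlr3, Tlr4, Tlr6, Tlr7, Tlr8, Tlr9, Tlr13 and Cd14), and all 10 were found among the 28347 genes of the steady-state table and the 48709 genes of the surgery table. RNA sequencing covered 15 libraries of sorted cells from C57BL/6 mice, in 5 groups of 3. In the steady state these were CX3CR1-high CCR2-high macrophages (CCR2-high), CX3CR1-low CCR2-low macrophages (CCR2-low), both from visceral fat, and blood monocytes. In the surgery experiment all 6 libraries were CX3CR1- CCR2- macrophages of visceral fat, 3 after myocardial infarction (MI) and 3 from the sham arm, whose treatment label is no myocardial infarction. The sources used here do not state any genotype beyond the strain, nor the age, the sex, the number of mice per library or the time after infarction. Since nothing says that replicates came from separate animals, p-values measure the spread between these samples, which may be technical.

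TLRs are membrane receptors of the innate immune system that bind conserved microbial molecules. TLR1, TLR2, TLR4 and TLR6 act at the cell surface on lipoproteins and lipopolysaccharide (LPS), while TLR3, TLR7, TLR8, TLR9 and TLR13 act in endosomes on nucleic acids. CD14 is a lipid-anchored co-receptor that hands LPS to TLR4 and its partner MD-2 and also serves other TLRs. Bound receptors recruit the adaptors MyD88 or TRIF and lead to nuclear factor kappa B (NF-kB) and interferon regulatory factors. In adipose tissue macrophages TLR4 is best known as a receptor studied in the response to saturated fat.

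Library depth, worked back from the values, was 40.8 to 59.3 M reads (M, 1e6) summed over 27702 genes in the steady state. For the surgery libraries the total that scales the values was 56.9 to 74.7 M reads. Their reads summed over 48349 genes came to 60.9 to 80.6 M, above that total in each library, so worked-back reads are approximate. Steady-state values are TPM (transcripts per 1e6 transcripts) and surgery values are RPKM (reads per 1e6 and per kilobase); both are per gene length, and the 2 tables were not compared with each other. The 7 macrophage markers summed to 3892 to 4860 TPM in CCR2-high, 4856 to 5750 TPM in CCR2-low and 2157 to 2751 RPKM in the surgery libraries. In the libraries labelled monocytes they summed to 194 to 279 TPM, the 6 classical monocyte markers to 7261 to 8493 TPM, and 5 granule precursor markers, led by Mpo (myeloperoxidase) at 11288 TPM, to 25522 to 30789 TPM. The granule precursor markers exceeded the monocyte markers in each of these 3 libraries, so the group is named here by its label alone. In the macrophage libraries the granule precursor markers summed to at most 13.0 TPM or 2.15 RPKM and Ms4a3 was at 0. The labelled monocytes also held 15.4 to 22.3 TPM of Xist, the X-inactivation RNA, and at most 0.0127 TPM of the Y-linked Ddx3y, whereas all 6 steady-state macrophage libraries held 0 TPM of Xist and 43.6 to 61.1 TPM of Ddx3y. Tlr7, Tlr8 and Tlr13 are on the X chromosome, so sex and cell type cannot be told apart in their comparison with the labelled monocytes. In bulk RNA, fewer cells of a type and less RNA per cell cannot be told apart either.

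The surface receptors lie on several chromosomes of mm10. Tlr2 is at chr3:83836272-83841767 on the minus strand, Tlr4 at chr4:66827584-66930284 on the plus strand, and Tlr1 and Tlr6 are neighbours on the minus strand of chromosome 5, at chr5:64924679-64933563 and chr5:64952031-64960097. Of the endosomal receptors, Tlr3 is at chr8:45395665-45411080 on the minus strand, Tlr9 at chr9:106222598-106226883 on the plus strand, Tlr7 and Tlr8 are neighbours on the minus strand at chrX:167304929-167330558 and chrX:167242696-167264329, and Tlr13 is at chrX:106143204-106160493 on the plus strand.

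Tlr1 and Tlr6 share an identical run of 229 coding bases, which is shown because the authors' counting could have split or dropped reads that fall wholly inside it. The capitals mark the shared run, with 30 coding bases on each side in lower case, as given by GENCODE M21 (coding bases 1438 to 1726 of Tlr1 and 1477 to 1765 of Tlr6).
Tlr1: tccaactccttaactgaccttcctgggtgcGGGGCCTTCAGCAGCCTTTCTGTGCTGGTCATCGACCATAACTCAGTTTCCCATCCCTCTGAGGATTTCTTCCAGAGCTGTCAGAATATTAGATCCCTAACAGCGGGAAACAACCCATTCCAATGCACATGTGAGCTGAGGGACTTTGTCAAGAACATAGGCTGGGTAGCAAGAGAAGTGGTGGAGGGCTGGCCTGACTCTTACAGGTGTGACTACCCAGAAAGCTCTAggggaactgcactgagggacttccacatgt
Tlr6: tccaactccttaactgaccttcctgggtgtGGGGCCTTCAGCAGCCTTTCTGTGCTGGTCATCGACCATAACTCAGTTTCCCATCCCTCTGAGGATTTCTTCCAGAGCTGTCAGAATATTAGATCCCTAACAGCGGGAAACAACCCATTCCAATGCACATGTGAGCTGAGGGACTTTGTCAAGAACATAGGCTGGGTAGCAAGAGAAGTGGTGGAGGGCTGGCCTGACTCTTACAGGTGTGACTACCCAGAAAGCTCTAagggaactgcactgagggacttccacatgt
Of all 75-base windows of the Tlr1 transcript, 11.5% occur in the Tlr6 transcript, and of all 50-base windows 15.3%. No other pair of the 10 genes shared a run longer than 18 bases. The values of Tlr1 and Tlr6, and their ratio, are uncertain to that extent, since the sources used here do not say how shared reads were treated.

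In both steady-state macrophage subsets Cd14 was the most abundant of the 10 transcripts and Tlr2 the most abundant receptor. In CCR2-high libraries the mean levels ran from Cd14 (1852 ± 278 TPM, SD, n = 3) through Tlr2 (269 ± 17.2 TPM), Tlr7, Tlr1, Tlr8, Tlr13, Tlr4, Tlr6 and Tlr3 down to Tlr9 (1.22 ± 0.407 TPM). Neighbours in that order overlapped between libraries for Tlr7 and Tlr1, for Tlr8 and Tlr13, and for Tlr13 and Tlr4, so these are not ordered beyond their spread. In CCR2-low libraries the order was Cd14 (1393 ± 534 TPM), Tlr2 (202 ± 51.5 TPM), Tlr7, Tlr4, Tlr8, Tlr1, Tlr13, Tlr6, Tlr3 and Tlr9 (0.800 ± 0.185 TPM). There the neighbours Tlr7 and Tlr4, Tlr4 and Tlr8, Tlr1 and Tlr13, and Tlr13 and Tlr6 overlapped. Thus Tlr1 and Tlr13 stood above Tlr4 by mean in CCR2-high and below it in CCR2-low.

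**Figure D1:**
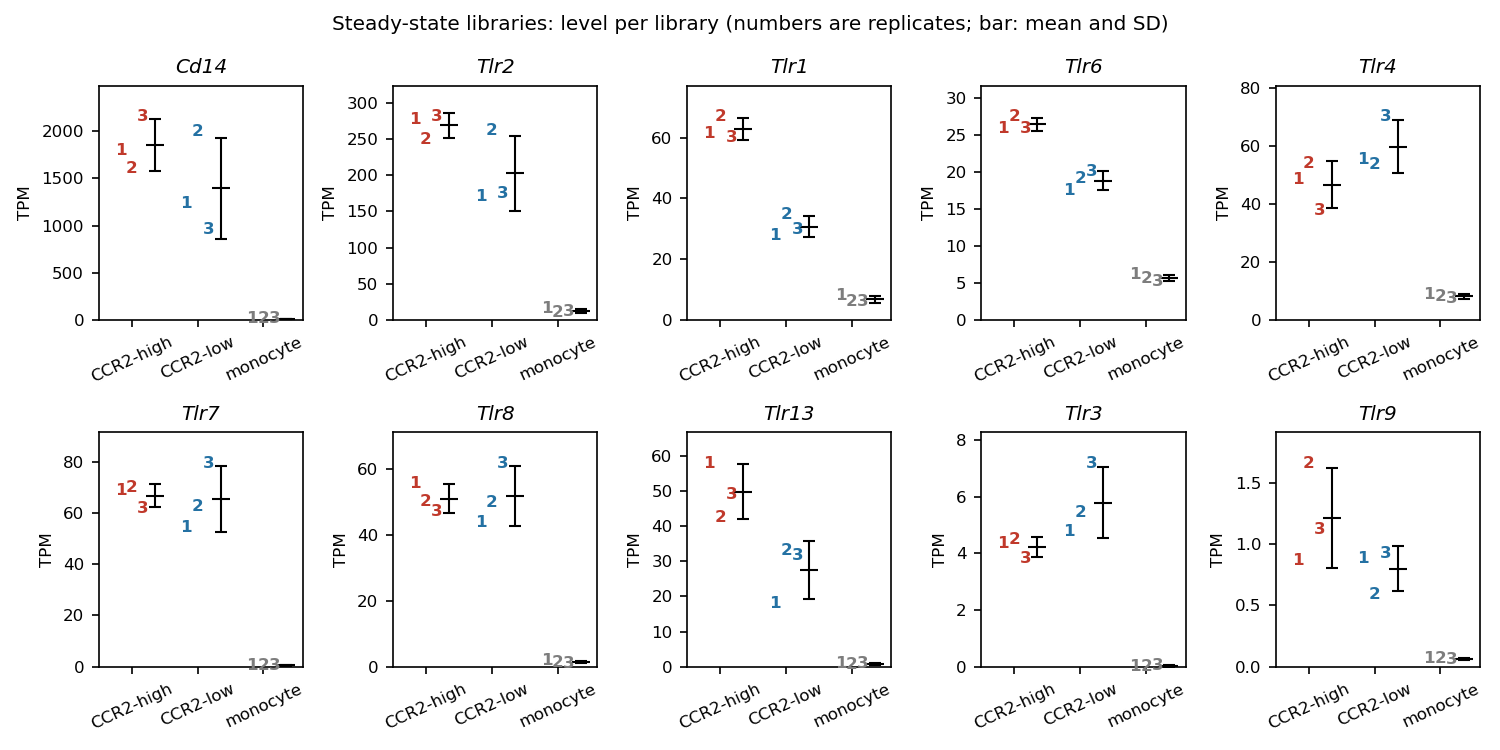
Level of each gene in TPM (y axis, linear, from 0) in the 9 steady-state libraries, with replicate numbers as symbols and the mean and SD of each group as a bar. Tlr1, Tlr6 and Tlr13 are higher in every CCR2-high library than in any CCR2-low library, and all 10 genes are lowest in the 3 libraries labelled monocytes.

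The comparison of CCR2-high with CCR2-low macrophages asks how the sorted subsets of one tissue differ. Tlr1, Tlr6 and Tlr13 were higher in CCR2-high, by 2.04-fold, 1.40-fold and 1.81-fold of the means, and no member was lower at the threshold. This is 3 of 9 members tested by limma, where 17.7% of all 15467 genes tested were called at an adjusted p below 0.05 and 8.93% were called higher in CCR2-high. Tlr9 was below the filter on low values, for which a gene had to reach 1 in 3 or more libraries. The median log2 fold change of the 9 members was 0.44, against -0.01 over all genes tested.

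Among the lipoprotein receptors, Tlr1, which pairs with TLR2 to bind triacylated lipopeptides, was at 61.4, 66.9 and 59.9 TPM in CCR2-high replicates 1 to 3 and at 27.8, 34.6 and 29.8 TPM in CCR2-low. All 3 CCR2-high libraries lay above all 3 CCR2-low libraries, and the gap was wider than the spread within either group. On the log2(TPM + 1) scale Tlr1 was 1.01 higher (SE 0.13, limma adjusted p = 0.000554). In the authors' deposited table Tlr1 was the one member with an adjusted p below 0.05 for this comparison, with a log2 fold change of 1.13 (adjusted p = 9.77e-06) and an adjusted p of 1 for each of the other 9 genes.

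Tlr6, which pairs with TLR2 to bind diacylated lipopeptides, was at 25.8, 27.5 and 25.9 TPM in CCR2-high and at 17.4, 19.1 and 20.0 TPM in CCR2-low. The groups did not overlap, and Tlr6 was 0.47 higher on the log2 scale (SE 0.11, limma adjusted p = 0.0133). The call was lost without CCR2-low replicate 1, the library with the lowest Tlr6 (0.42, limma adjusted p = 0.0650). Tlr2, their common partner, was at 277, 249 and 281 TPM in CCR2-high and at 170, 262 and 175 TPM in CCR2-low. CCR2-low replicate 2 lay within the CCR2-high range, so the groups overlapped, and Tlr2 did not pass the test (log2 0.44, 95% interval 0.04 to 0.83, limma adjusted p = 0.126). Without that library Tlr2 passed, at a log2 fold change of 0.63 (limma adjusted p = 0.0211).

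Cd14 had the widest spread of the surface members in CCR2-low. It was at 1797, 1605 and 2153 TPM in CCR2-high and at 1228, 1990 and 960 TPM in CCR2-low, where the highest library was 2.07 times the lowest. As with Tlr2, CCR2-low replicate 2 fell among the CCR2-high libraries, and the difference was not called (log2 0.47, 95% interval -0.01 to 0.95, limma adjusted p = 0.173); without that library it was called (0.76, limma adjusted p = 0.00634). Tlr4, the LPS receptor, was at 48.5, 53.9 and 37.8 TPM in CCR2-high and at 55.5, 53.8 and 70.2 TPM in CCR2-low. Its groups overlapped by a single pair of libraries, and its log2 fold change of -0.35 (95% interval -0.69 to -0.02) was not called (limma adjusted p = 0.136).

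Of the endosomal receptors, Tlr13, which in mice recognises bacterial ribosomal RNA, was at 58.1, 42.4 and 49.1 TPM in CCR2-high and at 18.0, 33.1 and 31.7 TPM in CCR2-low. The groups did not overlap, with CCR2-low replicate 1 well below the other CCR2-low libraries. Tlr13 was 0.87 higher on the log2 scale (SE 0.22, limma adjusted p = 0.0222). This call was lost in 6 of 15 alternatives, with limma adjusted p between 0.0149 and 0.0951 over all 15. Among these were the fits without CCR2-high replicate 1 (limma adjusted p = 0.0951), without CCR2-high replicate 3 (0.0593) and without CCR2-low replicate 1 (log2 0.60, limma adjusted p = 0.0580).

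Tlr7, a receptor for single-stranded RNA, and Tlr8, which has that role in humans, overlapped between the subsets. Tlr7 was at 68.8, 69.9 and 61.6 TPM in CCR2-high and at 54.3, 62.4 and 79.5 TPM in CCR2-low (log2 0.04, 95% interval -0.27 to 0.36, limma adjusted p = 0.874). Tlr8 was at 55.5, 50.1 and 46.9 TPM in CCR2-high and at 43.8, 49.9 and 61.7 TPM in CCR2-low (log2 -0.02, 95% interval -0.36 to 0.33, limma adjusted p = 0.961). In CCR2-low both were lowest in replicate 1 and highest in replicate 3.

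Tlr3, the dsRNA receptor that signals through TRIF, was at 4.37, 4.49 and 3.84 TPM in CCR2-high and at 4.76, 5.44 and 7.20 TPM in CCR2-low. It was the one member whose CCR2-low libraries all lay above the CCR2-high libraries, yet it did not pass the test (log2 -0.36, limma adjusted p = 0.150). Among all genes tested, 19.7% did not overlap with CCR2-high above and 18% with CCR2-low above, beside 3 and 1 of the 9 members. Tlr9, the receptor for CpG DNA, was at 0.867, 1.66 and 1.12 TPM in CCR2-high and at 0.887, 0.587 and 0.925 TPM in CCR2-low. Its groups overlapped, and with no filter its log2 fold change was 0.29 (limma adjusted p = 0.288).

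**Figure D2:**
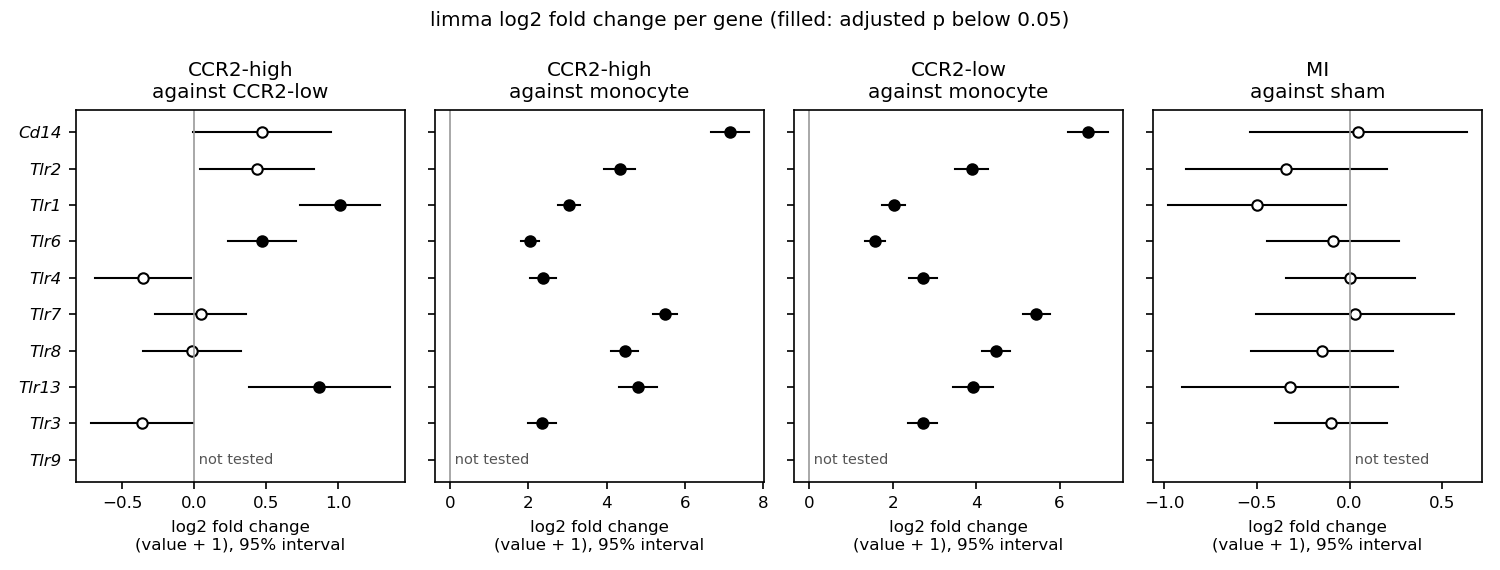
limma log2 fold change of each gene on the log2(value + 1) scale (x axis) with its 95% interval, in the 4 comparisons; filled points passed an adjusted p of 0.05, and each panel has its own x range. Tlr1, Tlr6 and Tlr13 are filled for CCR2-high against CCR2-low, all 9 tested genes are filled and above 0 against the labelled monocytes, and none is filled for MI against sham.

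Markers of several other cells differed in level between the subsets. The 6 classical monocyte markers, all above 0 in every macrophage library, summed to 579 to 590 TPM in CCR2-high and to 103 to 141 TPM in CCR2-low, mostly as Ccr2, which the sort used. The 6 B cell markers, all above 0 in both groups, summed to 52.6 to 61.1 TPM in CCR2-high and 27.3 to 37.8 TPM in CCR2-low. In the other direction, the 5 fibroblast markers summed to 5.69 to 26.7 TPM in CCR2-high and 57.4 to 109 TPM in CCR2-low, and the 5 endothelial markers to 18.7 to 31.4 TPM and 70.5 to 86.1 TPM. The 7 markers of plasmacytoid dendritic cells, which use TLR7 and TLR9, summed to 185 to 257 TPM in CCR2-high and 246 to 315 TPM in CCR2-low, ranges that overlap. Most of each sum was Bst2, at 187 and 180 TPM, while Siglech was at 15.3 and 55.0 TPM, and Klk1 was at 0 in CCR2-low. The 7 neutrophil markers summed to 67.7 to 88.1 TPM in CCR2-high and 92.2 to 110 TPM in CCR2-low, where Retnlg was at 32.6 and 60.5 TPM, and Ly6g was at 0 in both subsets. The part of these cells in the receptor levels was not tested.

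Sequence upstream of the genes called between the subsets is shown for Tlr1, Tlr6 and Tlr13, because these members moved together. It comes from RefSeq on GRCm38.p6, on the strand of the gene. Each window ended at the base before an annotated start, and bases that GENCODE M21 counts as exon were then left out. For Tlr1 the 5 bases next to the start are therefore not shown, and for Tlr13 the 71 bases next to it, whereas the Tlr6 window is whole. For Tlr6 the window shown precedes an inner start and lies in an intron of the longer gene model. Capitals mark matches to 2 short motifs, GAGGAAG, a core of the site bound by the myeloid factor PU.1, in Tlr1 and Tlr13, and GAAA followed after any 2 bases by GAAA, an interferon response element, in Tlr6, where 2 overlapping matches are on the other strand.
Tlr1, chr5:64933564-64933808, minus strand: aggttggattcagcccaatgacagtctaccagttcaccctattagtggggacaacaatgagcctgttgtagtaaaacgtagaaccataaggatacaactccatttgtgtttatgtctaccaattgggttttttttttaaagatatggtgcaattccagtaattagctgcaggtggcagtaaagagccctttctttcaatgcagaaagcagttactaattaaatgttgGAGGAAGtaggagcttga
Tlr6, chr5:64959167-64959416, minus strand: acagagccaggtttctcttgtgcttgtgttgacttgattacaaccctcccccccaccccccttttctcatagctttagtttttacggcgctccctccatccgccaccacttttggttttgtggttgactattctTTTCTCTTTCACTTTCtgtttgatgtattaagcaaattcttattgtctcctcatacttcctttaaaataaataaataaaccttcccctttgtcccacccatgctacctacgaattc
Tlr13, chrX:106143025-106143203, plus strand: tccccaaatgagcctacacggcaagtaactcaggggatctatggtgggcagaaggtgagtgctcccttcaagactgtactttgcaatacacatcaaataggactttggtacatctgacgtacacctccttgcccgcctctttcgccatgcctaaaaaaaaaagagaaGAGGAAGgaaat
The PU.1 letters began 23 bases before the Tlr1 start and 83 bases before the Tlr13 start, counting the bases that are not shown. Both strands of the 250 bases before each start were searched. Of the 10 members 7 had a window, with 9 windows in all, as Tlr1 and Tlr6 each had another start. The PU.1 letters were in 3 of the 9 windows (Tlr1, Tlr9 and Tlr13) and in 10.6% of 32851 windows of all genes. The interferon element was in 1 of the 9 (Tlr6) against 2.98% of all windows. GGG followed after any 2 bases by TTTCC, a form of the NF-kB site, was in 1 (Tlr3) against 1.41%, and TGANTCA, the AP-1 site, was in 1 (Tlr9) against 6.75%. The windows of Tlr1 and Tlr6 that are not shown held none of these motifs. These matches describe letters and do not show binding.

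Tlr5, Tlr11 and Tlr12, the other receptor genes of the family in mice, also differed between the subsets. Tlr12, which recognises profilin together with TLR11, was at 3.24 ± 1.56 TPM in CCR2-high and 0.348 ± 0.325 TPM in CCR2-low (n = 3 each; log2 1.62, limma adjusted p = 0.00199). Tlr11 was at 3.90 ± 0.718 and 2.40 ± 0.212 TPM (log2 0.52, limma adjusted p = 0.0428), a call lost in 10 of 14 alternatives. Tlr5, the flagellin receptor, was lower in CCR2-high, at 16.1 ± 6.42 against 31.9 ± 3.84 TPM (log2 -0.998, limma adjusted p = 0.0132).

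Of 15 co-receptors and accessory proteins, 2 passed as higher in CCR2-high and 4 as lower (all genes: 8.93% higher and 8.74% lower). Higher were Ly86 (MD-1, partner of the receptor homologue CD180; 651 ± 54.1 against 461 ± 3.92 TPM, limma adjusted p = 0.00384) and Slc15a3, an endolysosomal peptide and histidine transporter (14.8 ± 2.01 against 5.49 ± 1.59 TPM, limma adjusted p = 0.00127). Lower were Lbp, the LPS-binding protein that loads CD14 (1.47 ± 0.417 against 7.63 ± 3.41 TPM, log2 -1.75, limma adjusted p = 0.000882), Cd36, a scavenger receptor that passes lipids to TLR2 complexes (825 ± 137 against 1233 ± 266 TPM, limma adjusted p = 0.0329), and the endolysosomal ribonucleases Rnaset2a and Rnaset2b, near-identical copies whose reads may be split. The LPS partner of TLR4, Ly96 (MD-2), was at 157 ± 12.9 and 196 ± 14.8 TPM and was not called (limma adjusted p = 0.0531), and Unc93b1, which carries endosomal receptors out of the endoplasmic reticulum, was at 968 ± 59.8 and 922 ± 2.13 TPM (limma adjusted p = 0.727).

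Of the 6 proteases that cut endosomal receptors, 2 were higher and none was lower (all genes: 8.93% higher and 8.74% lower). Ctss (cathepsin S) was at 2559 ± 378 TPM in CCR2-high and 1534 ± 56.8 TPM in CCR2-low (log2 0.73, limma adjusted p = 0.00295), and Ctsk (cathepsin K) was at 15.7 ± 8.32 and 5.12 ± 3.36 TPM (limma adjusted p = 0.0488), a call lost in 10 of 15 alternatives. The list's median log2 fold change was -0.09, opposite in sign to both calls. Of 5 TIR adaptors tested, 2 were higher, namely Ticam1 (TRIF, adaptor of TLR3 and TLR4; 15.2 ± 0.989 against 9.19 ± 0.474 TPM, log2 0.67, limma adjusted p = 0.00658) and Pik3ap1 (BCAP; log2 0.47, limma adjusted p = 0.0311). Myd88, the adaptor of all these receptors but TLR3, was at 107 ± 3.93 and 95.1 ± 6.70 TPM and was not called (limma adjusted p = 0.246).

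Downstream, 2 of 17 kinases and ubiquitin enzymes were higher, Ube2n (Ubc13; log2 0.37, limma adjusted p = 0.0178) and Irak2 (log2 0.64, limma adjusted p = 0.0365), and none was lower. Over all genes tested, 8.93% were called higher and 8.74% lower, and these shares stand beside every count in this paragraph. Of 5 interferon regulatory factors, 2 were higher: Irf5 (219 ± 8.94 against 163 ± 4.54 TPM, limma adjusted p = 0.0111) and Irf7 (36.7 ± 9.38 against 20.3 ± 6.05 TPM, limma adjusted p = 0.0286). Of 10 inhibitors of TLR signalling, 2 were higher, Tnfaip3 (A20; 394 ± 55.2 against 180 ± 60.3 TPM, log2 1.16, limma adjusted p = 0.00436) and Socs1 (15.0 ± 2.11 against 8.97 ± 0.299 TPM, limma adjusted p = 0.00910), and none was lower. Of 10 sensors outside the family, the cytosolic RNA sensor Ifih1 (MDA5) and the DNA sensor Mb21d1 (cGAS) were higher by 0.90 and 0.65 on the log2 scale, and the peptidoglycan proteins Nod1 and Pglyrp1 were lower by -0.58 and -0.99. Of 3 genes for handling LPS that were tested, the scavenger receptor Msr1 was lower (log2 -0.49, limma adjusted p = 0.0464). Of the 24 called genes of these lists, 11 kept their call in every alternative run: Lbp, Ly86, Slc15a3, Ctss, Ticam1, Irf5, Tnfaip3, Socs1, Ifih1, Mb21d1 and Tlr12.

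Compared with the libraries labelled monocytes, all 9 tested members were higher in CCR2-high and in CCR2-low. Of these, Tlr3, Tlr7 and Tlr13 were below 1 TPM in every labelled monocyte library. They passed the filter only through macrophage libraries, so their direction was largely set by the filter. Among all genes tested, 77.8% were called in CCR2-high and 26.5% called higher, and 79% were called in CCR2-low and 28.4% called higher. All libraries of all 10 members lay above those of the labelled monocytes, where 27.3% and 28.6% of all genes tested did so. The comparisons share the labelled monocyte libraries, so they are not independent, and the precursor granule markers and sex-linked transcripts given above differ between the same groups. Fold changes of all genes had a median of -0.42 and -0.40 on the log2 scale, and median-ratio scaling moved that median up by 0.44 and 0.41. It raised the share of higher genes among the calls from 34.1 to 50.4% for CCR2-high and from 36.0 to 50.6% for CCR2-low, and each of the 9 members stayed higher under it.

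Cd14 was at 12.0, 11.6 and 12.3 TPM in the labelled monocytes, 155-fold below the CCR2-high mean and 117-fold below the CCR2-low mean, with log2 fold changes of 7.15 (SE 0.22, limma adjusted p = 3.18e-10) and 6.68 (limma adjusted p = 4.74e-10). Even the lowest macrophage library, at 960 TPM, was far above them. Tlr2 was at 15.6, 10.2 and 12.0 TPM in the labelled monocytes, so that it and Cd14 overlapped there, and it was 4.33 higher in CCR2-high and 3.90 higher in CCR2-low on the log2 scale.

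Tlr1, Tlr4 and Tlr6 were the receptors best kept in the labelled monocytes. Tlr4 was at 8.95, 8.13 and 7.43 TPM there, which was 2.37 and 2.72 lower on the log2 scale than in CCR2-high and CCR2-low. Tlr1 was at 7.99, 6.20 and 6.16 TPM (3.04 and 2.03 lower), and Tlr6 was at 6.09, 5.63 and 5.25 TPM (2.04 and 1.57 lower). No macrophage library reached down to these values. The smallest of all these differences, Tlr6 in CCR2-low, had a limma adjusted p of 1.33e-07.

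The endosomal receptor gene Tlr7 was at 0.580, 0.373 and 0.574 TPM in the labelled monocytes, with log2 fold changes of 5.49 for CCR2-high and 5.44 for CCR2-low. Tlr8 was at 1.75, 1.37 and 1.01 TPM (4.46 and 4.47), and Tlr13 was at 0.999, 0.520 and 0.979 TPM (4.80 and 3.93). For each gene every labelled monocyte library lay below every macrophage library. The pseudocount of 1 holds down these log2 changes. By means alone, CCR2-high was 131-fold above the labelled monocytes for Tlr7, 37.0-fold for Tlr8 and 59.9-fold for Tlr13.

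Tlr3 was at 0.0135, 0 and 0.0555 TPM in the labelled monocytes, which is 1.16, 0 and 5.89 reads by the worked-back depth. Its log2 fold changes of 2.35 and 2.72 (limma adjusted p = 1.63e-07 and 4.37e-08) rest on the pseudocount of 1, which holds down the change of a gene at such levels. Since Tlr3 passed the filter only through macrophage libraries, these p-values belong to a direction that the filter largely set. Tlr9 was at 0.0682, 0.0627 and 0.0562 TPM, or 3.93, 3.95 and 3.99 worked-back reads, and without the filter was called higher in CCR2-high (log2 1.05, limma adjusted p = 0.000342) and in CCR2-low (log2 0.76, limma adjusted p = 0.00208). In the authors' deposited table all 10 genes had adjusted p-values below 0.05 in both comparisons, lower in monocytes by log2 fold changes between -2.20 (Tlr6 against CCR2-low) and -7.86 (Tlr3 against CCR2-low).

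All 6 endosomal proteases were higher in both macrophage subsets than in the labelled monocytes, led by Lgmn (asparagine endopeptidase), at 768 ± 79.2, 773 ± 59.1 and 2.65 ± 0.379 TPM in CCR2-high, CCR2-low and labelled monocytes. Of 15 accessory genes, 10 were higher and 3 lower in CCR2-high, and 11 higher and 2 lower in CCR2-low. Of all 15467 genes tested, 26.5% and 28.4% were called higher, and 7932 and 7828 genes were called lower. Ly96 was 3.37 and 3.69 higher on the log2 scale, and Cd36 was at 0.0292 ± 0.0404 TPM in the labelled monocytes. Ctsk, Slc15a3 and Cd36 were below 1 TPM in every labelled monocyte library. They passed the filter only through macrophage libraries, so their direction was largely set by the filter. Hsp90b1 (gp96), the chaperone that folds TLRs, was at 471 ± 48.8 TPM in the labelled monocytes, above the 258 ± 16.9 TPM of CCR2-high and the 255 ± 17.2 TPM of CCR2-low.

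Adaptors were measured in all 3 groups. Of 5 tested, 4 were higher in CCR2-high and 3 in CCR2-low, and Myd88 was at 49.2 ± 3.31 TPM in the labelled monocytes, 1.11 and 0.94 lower on the log2 scale. Of 17 kinases and ubiquitin enzymes, 5 were higher in each subset, while 4 were lower in CCR2-high and 7 in CCR2-low, among them Irak1 (-0.74 and -0.83). Of 5 interferon regulatory factors, Irf1, Irf5 and Irf7 were higher in both subsets and Irf8 was lower in both (-1.81 and -1.91). Of 10 inhibitors, 5 were higher and 2 lower in CCR2-high, and 6 were higher and 1 lower in CCR2-low, with Dusp1 (a phosphatase of MAP kinases) 6.20 and 5.96 higher. Among the receptors outside the 10, Tlr5 and Tlr11 were higher in both subsets, while Tlr12 was lower in CCR2-low (-1.07, limma adjusted p = 0.00254) and was not called in CCR2-high (0.55, limma adjusted p = 0.0700). Of 10 other sensors 6 were higher and 3 lower in each subset, and of 3 genes for handling LPS 2 were higher and 1 lower in each. Tlr5, Tlr11, Nod2 and Msr1 were below 1 TPM in every labelled monocyte library and passed the filter only through macrophage libraries. Camp, the LPS gene called lower, was below 1 TPM in every macrophage library and passed only through the labelled monocytes. The direction of these genes was largely set by the filter. Beside these counts, 26.5% of all genes tested were called higher in CCR2-high and 28.4% in CCR2-low. Called lower were 7932 of 15467 genes in CCR2-high and 7828 in CCR2-low.

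The 9 receptors together summed to 566 to 600 TPM in CCR2-high, 393 to 521 TPM in CCR2-low and 32.4 to 42.0 TPM in the labelled monocytes, ranges that do not overlap. These sums keep the scaling of each library, whereas shares and ratios within a library cancel it. The 5 endosomal receptors made up 28.7 to 31.3% of the sum in CCR2-high, 29.1 to 38.0% in CCR2-low and 7.16 to 8.11% in the labelled monocytes. The subsets overlapped in that share, and the labelled monocytes lay below both.

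The ratio of Tlr1 to Tlr6 separated all 3 steady-state groups, at 2.32 to 2.44 in CCR2-high, 1.49 to 1.81 in CCR2-low and 1.10 to 1.31 in the labelled monocytes. Tlr7 to Tlr8, neighbours on the X chromosome, was 1.24 to 1.39 in CCR2-high and 1.24 to 1.29 in CCR2-low but 0.273 to 0.570 in the labelled monocytes. Tlr7 to Tlr13 was 1.18 to 1.65 in CCR2-high and 1.89 to 3.02 in CCR2-low. These ratios are given as ranges of 3 libraries and were not tested.

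**Figure D3:**
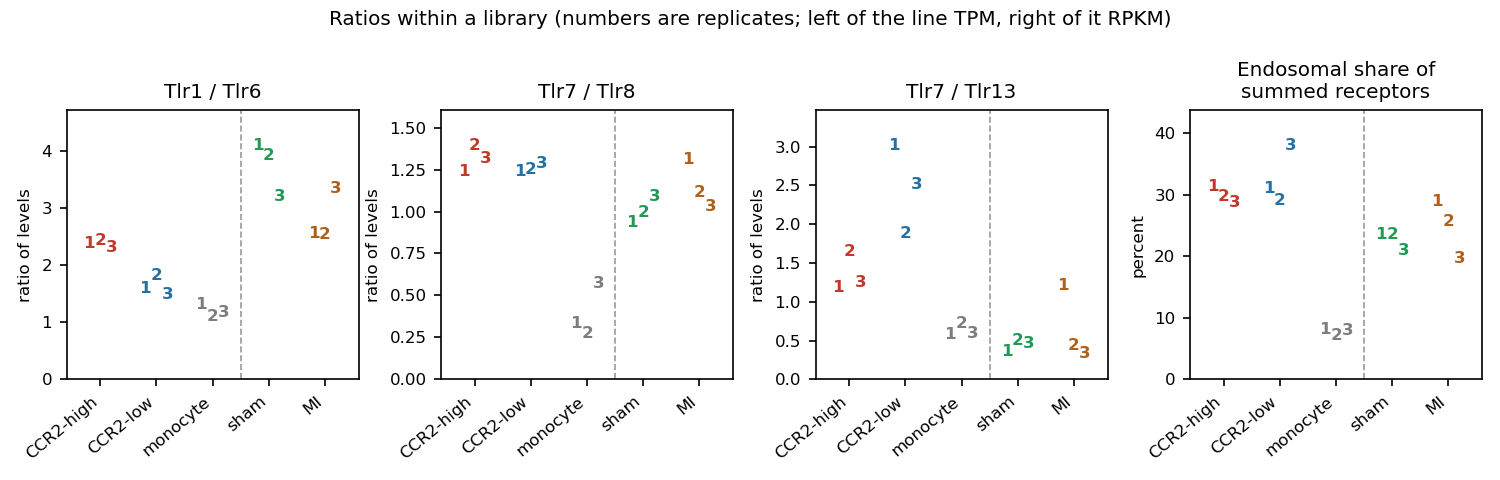
Ratio of levels, or percent, within each of the 15 libraries (y axis, linear, from 0), with replicate numbers as symbols; steady-state libraries (TPM) are left of the dashed line and surgery libraries (RPKM) right of it. Tlr1 over Tlr6 is 2.32 to 2.44 in CCR2-high and 1.49 to 1.81 in CCR2-low, and MI replicate 1 stands apart for Tlr7 over Tlr13 at 1.21.

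After infarction none of the 9 tested members was called against sham, and neither was any of the 9607 genes tested (limma, lowest adjusted p over all genes 0.241, lowest among the members 0.617; 0% called). At an unadjusted p below 0.05 limma had 753 genes, or 7.84%, and 1 member, Tlr1. The members' median log2 fold change was -0.10, against -0.02 over all genes. Among all genes tested 8.71% did not overlap with MI below sham and 5.84% with MI above, and Tlr1 was the 1 member whose groups did not overlap.

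Tlr1 was at 29.7, 32.2 and 26.1 RPKM in sham replicates 1 to 3 and at 14.8, 22.6 and 25.3 RPKM after MI. The highest MI library came close to the lowest sham library, and the log2 fold change of -0.50 (SE 0.20, 95% interval -0.98 to -0.02, limma adjusted p = 0.617) was not called. Without MI replicate 1 it was -0.28 (limma adjusted p = 0.448). Tlr2 was at 152, 151 and 169 RPKM in sham and 89.2, 126 and 168 RPKM after MI, and Tlr6 at 7.23, 8.21 and 8.13 RPKM in sham and 5.76, 8.92 and 7.58 RPKM after MI. Both overlapped, with log2 fold changes of -0.34 (95% interval -0.88 to 0.20) and -0.09 (95% interval -0.45 to 0.27).

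Cd14 and Tlr4 had MI and sham means close to each other. Cd14 was at 928, 707 and 1020 RPKM in sham and 725, 849 and 1199 RPKM after MI (log2 0.05, 95% interval -0.54 to 0.63). Tlr4 was at 22.3, 22.6 and 20.7 RPKM in sham and 27.3, 20.4 and 18.8 RPKM after MI (log2 0.00, 95% interval -0.34 to 0.35). The groups overlapped for both genes, and the interval was the wider for Cd14.

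The endosomal receptors overlapped between MI and sham as well. Tlr13 was at 35.4, 31.3 and 30.2 RPKM in sham and 16.7, 32.0 and 31.0 RPKM after MI (log2 -0.32, 95% interval -0.90 to 0.26), and without MI replicate 1 the value was -0.03. Tlr7 was at 12.8, 15.5 and 13.9 RPKM in sham and 20.2, 14.0 and 10.3 RPKM after MI (log2 0.03, 95% interval -0.50 to 0.56). Tlr8, Tlr3 and Tlr9 ranged over 9.97 to 15.5, 1.94 to 2.90 and 0.315 to 0.598 RPKM in the 6 libraries, and Tlr9 was below the filter.

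MI replicate 1 stood apart for several members. It was the lowest of the 6 surgery libraries for Tlr1, Tlr2, Tlr6 and Tlr13 and the highest for Tlr4 and Tlr7, its Tlr7 to Tlr13 ratio was 1.21 against 0.332 to 0.494 in the other 5, and its 9 receptors summed to 193 RPKM against 240 to 283 RPKM. In that library the 6 classical monocyte markers, all above 0 in each surgery library, summed to 98.2 RPKM, against 297 to 498 RPKM in the other 5. Ccr2, a sort gene and one of these markers, was at 8.09 RPKM in it and at 26.8 to 41.4 RPKM in the other 5. Cx3cr1, also a sort gene, was at 5.11 RPKM in it and at 18.1 to 25.6 RPKM in the other 5. The 7 plasmacytoid dendritic cell markers, mostly Bst2, summed to 259 RPKM in it and to 147 to 187 RPKM in the other 5. The 5 fibroblast markers, all above 0, summed to 56.9 to 87.9 RPKM in MI, highest in replicate 1, and to 15.5 to 36.1 RPKM in sham, and the 7 neutrophil markers to 153 to 224 RPKM in MI and 74.0 to 143 RPKM in sham. The part of these cells in the receptor levels was not tested. No gene of the 9 lists around the receptors was called after MI.

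**Figure D4:**
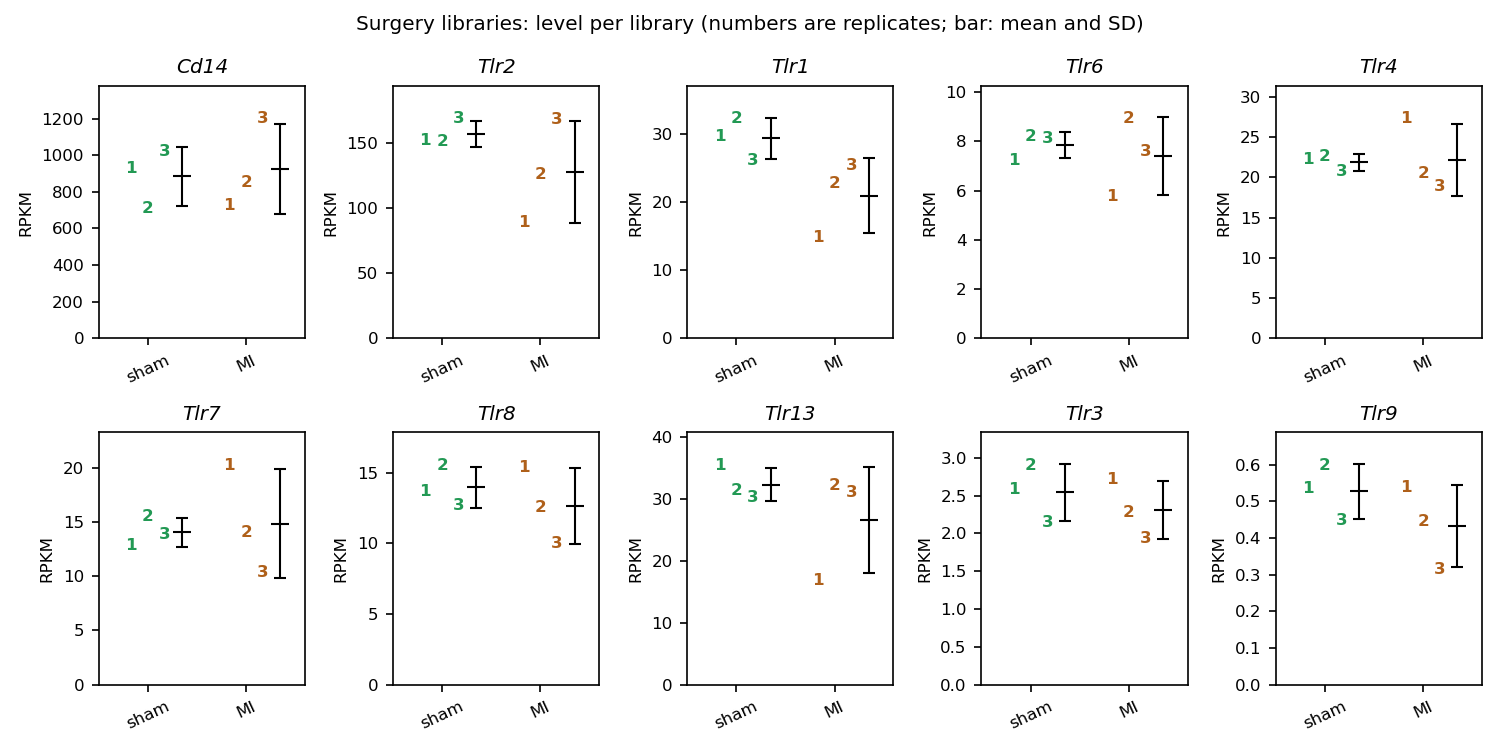
Level of each gene in RPKM (y axis, linear, from 0) in the 6 surgery libraries, with replicate numbers as symbols and the mean and SD of each group as a bar. Tlr1 is the 1 gene whose groups do not overlap, and MI replicate 1 is lowest for Tlr1, Tlr2, Tlr6 and Tlr13 and highest for Tlr4 and Tlr7.

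Genes with a pattern like that of each member over the 9 steady-state libraries were taken from 9135 genes with a mean of at least 5 TPM, by Pearson's r of log2(TPM + 1). The points share depth and 3 groups, so most of r reflects the distance to the labelled monocytes. Tlr1 was closest to Skil, Ccl4 and Lsp1 (r 0.997, 0.997 and 0.996), with Ccl4, a chemokine, at 2552, 462 and 10.8 TPM in CCR2-high, CCR2-low and labelled monocytes. Tlr6 was closest to Cxcl10 (718, 208 and 2.53 TPM), Pip4k2a and Slamf7, and Tlr13 to Prkch, Sgk1 and Tnfaip3, the inhibitor given above. Cd14 was closest to Id3, Crem and Nfkbid, and Tlr2 to Nab2, Birc3 and Rrad.

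Tlr4 was closest to Wwp1, Dnajb9 and Prune2, and Tlr3 to Reps2, Rgmb and Aplp2, all with CCR2-low means above CCR2-high means as for Tlr3 and Tlr4 themselves. Tlr8 was closest to Cav2, Dram2 and Abcc3. Tlr7 was closest to Nabp1, C3ar1 and Uty, of which Uty is Y-linked and at 10.5, 9.80 and 0.0267 TPM. Tlr9 had the weakest likeness, with Creb5, Sppl2a and Ntpcr at r 0.985, 0.984 and 0.981. Among the members the closest pair was Tlr7 and Tlr8 (r 0.998), followed by Tlr2 and Cd14 (r 0.997) and Tlr3 and Tlr4 (r 0.995).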

How the data were processed

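The PicoPure kit was used for RNA of the sorted cells, and libraries followed Illumina protocols, per the labels' protocols. The authors deposited TPM per gene for the steady-state libraries, with the log2 fold change and adjusted p-value of each gene in 3 comparisons of their own, per the file headers, and RPKM per gene for the surgery libraries. Reads were placed on mm10, per the submitters' processing notes; the sources used here do not state the aligner, strand setting or annotation. Depth was worked back from GENCODE M21 exon lengths, since 87.2 to 92% of the 2000 lowest values per library were whole numbers of reads within 0.05; intervals from it would cover counting error only.

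From these values, limma 3.58.1 (R 4.3.3) was run on log2(value + 1) with eBayes (trend). Genes had to reach 1 in 3 or more libraries, with Benjamini-Hochberg adjustment over all genes of a table and a threshold of 0.05, two-sided. The 9 steady-state libraries shared 1 fit. The fits were tested on simulated data. Named were all 10 members and up to 4 genes with the smallest p of each pathway list, together with the genes most like each member; further called genes of those lists, and Ly96, Unc93b1 and Hsp90b1, were named after their values were seen. Members and lists were chosen with earlier results of these data known. Other deposited gene lists were not used. Replicate numbers did not pair the samples.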

Additional observations from a re-analysis of the deposited data

How the results depend on the processing

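With 3 libraries a group, the design limits the differences that can be called. The pseudocount of 1 holds down fold changes of Tlr3 and Tlr9, and those of Tlr7, Tlr8 and Tlr13 against the labelled monocytes. No called value of a member changed sign. Values of Tlr4, Tlr6, Tlr7, Tlr8 and Cd14 for MI against sham, and of Tlr7 and Tlr8 for CCR2-high against CCR2-low, none of them called, changed sign in at least 1 alternative. Over all alternatives the members gave 545 values, of which 536 kept their side of the threshold, 7 lost a call and 2 gained one, all 9 for CCR2-high against CCR2-low. Of the 24 called list genes in that comparison, 13 lost the call in at least 1 alternative. The number of genes called there was 2733. With the replicate number as a block it was 1795, and without 1 library it ranged from 1481 (without CCR2-high replicate 1) to 2424. The members called, 3, ranged from 1 (without CCR2-low replicate 1) to 5 (without CCR2-low replicate 2) when 1 library was left out. Tlr13 was not called with the replicate block (limma adjusted p = 0.0504), a pseudocount of 0.1 (0.0524) or no filter (0.0698). For MI against sham, 0 genes were called by limma in every alternative except those without 1 library, which ranged from 0 to 5 (without MI replicate 3). The cause was not tested. Same-numbered samples did not deviate together (correlations of -0.57, 0.06 and -0.10 in the surgery libraries by title and 0.17, 0.10 and -0.51 by description; -0.36 to 0.03 in the steady state), so the block groups samples by number only.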
